A study of Mus musculus with 6 samples.

Results

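The TGF-beta and BMP signaling genes described here were 49 genes of the transforming growth factor beta (TGF-beta) superfamily, their receptors, secreted binding proteins, intracellular SMAD mediators and direct targets. They were taken by gene name from the 43346 genes of the count table, where all 49 were found, and all 49 had enough reads to be tested. RNA-seq was performed on primary mouse adult fibroblasts (MAFs) isolated from ears of adult female wild-type C57BL/6J mice. Control MAFs were sham irradiated, and senescent MAFs were exposed to X-rays at 20 Gy and cultured until senescence was established. All cells of both groups were grown at 3% oxygen, treated for 2 hours with 100 nM dexamethasone, a glucocorticoid that synchronizes circadian clocks, and harvested 12 hours later. The values therefore describe a single radiation dose and a single time point, in cells that had all seen a glucocorticoid. Each group held 3 replicates, and the labels do not say whether these were separate animals or cultures, so the p-values measure the spread between these libraries, which may be technical.

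TGF-beta family ligands are secreted dimers that bring type I and type II serine/threonine kinase receptors together, and the activated type I receptor phosphorylates receptor SMADs, which enter the nucleus with the common SMAD4. TGF-betas and activins mainly use SMAD2 and SMAD3, whereas bone morphogenetic proteins (BMPs) and only some growth differentiation factors mainly use SMAD1, SMAD5 and SMAD9. The pathway is held in check outside the cell by latent binding proteins, follistatins and BMP antagonists, and inside the cell by the inhibitory SMAD6 and SMAD7. In fibroblasts it governs matrix production and the myofibroblast state, and activin A and GDF15 are known among the secreted products of senescent cells.

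Libraries held between 50288454 and 82229553 counts, and levels are given as CPM, counts scaled to the size of the library with TMM factors, in which 3 counts correspond to between 0.0355 and 0.0613 CPM. Fold changes are senescent over control on the log2 scale, with the standard error (SE) and a Benjamini-Hochberg adjusted p from edgeR's two-sided quasi-likelihood test over 17589 genes. A gene is said to have risen or fallen where the adjusted p was under 0.05. Senescent replicate 3 stood apart from the other senescent libraries. Across the 49 members its log2 ratio to the mean of senescent replicates 1 and 2 went down with the GC content of the transcript (Pearson's r = -0.714 and Spearman's rho = -0.795, a description of genes that share those 3 libraries). Over the 13605 tested genes above 1 CPM the same values were -0.794 and -0.826, so the trend was not particular to the members. Values without this library are given beside some results only, and it moved others as well. The summed level of 9 fibroblast markers was 17805 to 19895 CPM in control and 6705 to 8007 CPM in senescent libraries. Of these 9 genes 5 fell, among them the abundant collagens *Col1a1*, *Col1a2* and *Col3a1*, 3 rose (*Dcn*, *Thy1* and *Lum*) and *Pdgfrb* did not pass the test. Markers of cartilage, a tissue of the ear, moved with the groups as well, with a summed level of 7487 to 8090 CPM in control and 685 to 775 CPM in senescent libraries for 15 genes, of which 13 of 14 tested fell. Macrophage markers summed to between 5.69 and 6.46 CPM in control and between 13.98 and 16.5 CPM in senescent libraries, and endothelial markers to between 2.43 and 2.83 CPM and between 7.38 and 8.08 CPM. Keratinocyte markers went the other way, from between 15.96 and 16.56 CPM to between 7.78 and 7.92 CPM. Summed skeletal muscle markers, and those of Schwann cells and melanocytes, were higher in every senescent library than in any control library. The part of other cell types in the results below was not tested, and in bulk RNA fewer cells of a type and less RNA per cell cannot be told apart.

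Senescent MAFs held more RNA for most secreted members and for some of their antagonists, while latent binding proteins, the common SMAD and several receptors moved little or fell. Of the 49 members, 28 rose (57.1%), 12 fell (24.5%) and 9 did not pass the test, where 36.2% of all genes tested rose and 34.1% fell (70.3% in either direction). With the limits in the methods of the study, an unadjusted p under 0.05 and a log2 fold change beyond 1 in either direction, 20 members were higher and 5 were lower, against 17.8% and 12.3% of all genes (30.1% in either direction). The number of lower members, 5 here, was 2 without senescent replicate 3, 2 with scaling by total count alone and 3 without control replicate 2. It was 3 with at least 10 counts in every library and 1 with an offset for GC content. The 2 without senescent replicate 3 were *Acvr1b* (-1.31), which is among the 5, and *Tgfbr3* (-1.00045), which is not (-0.95 with all libraries). Among the higher members, *Bmpr2* (0.86) and *Gdf11* (0.95) came under the limit without senescent replicate 3, and *Bmpr2* also with the GC offset (0.86). With a library left out *Acvr1* went as low as 0.996, and *Id4*, not among the higher members, went as high as 1.01. The results text of the study prints another p limit, which was not used here. The groups did not overlap for 43 members (87.8%), and this held for 75.4% of all genes. The median log2 fold change was 0.78 over the members and 0.01 over all genes tested. All 5 BMP ligands, all 5 growth differentiation factors, both activin subunits and both activin-binding proteins rose, and none of the 4 latent TGF-beta binding proteins passed the test in either direction.

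**Figure D1:**
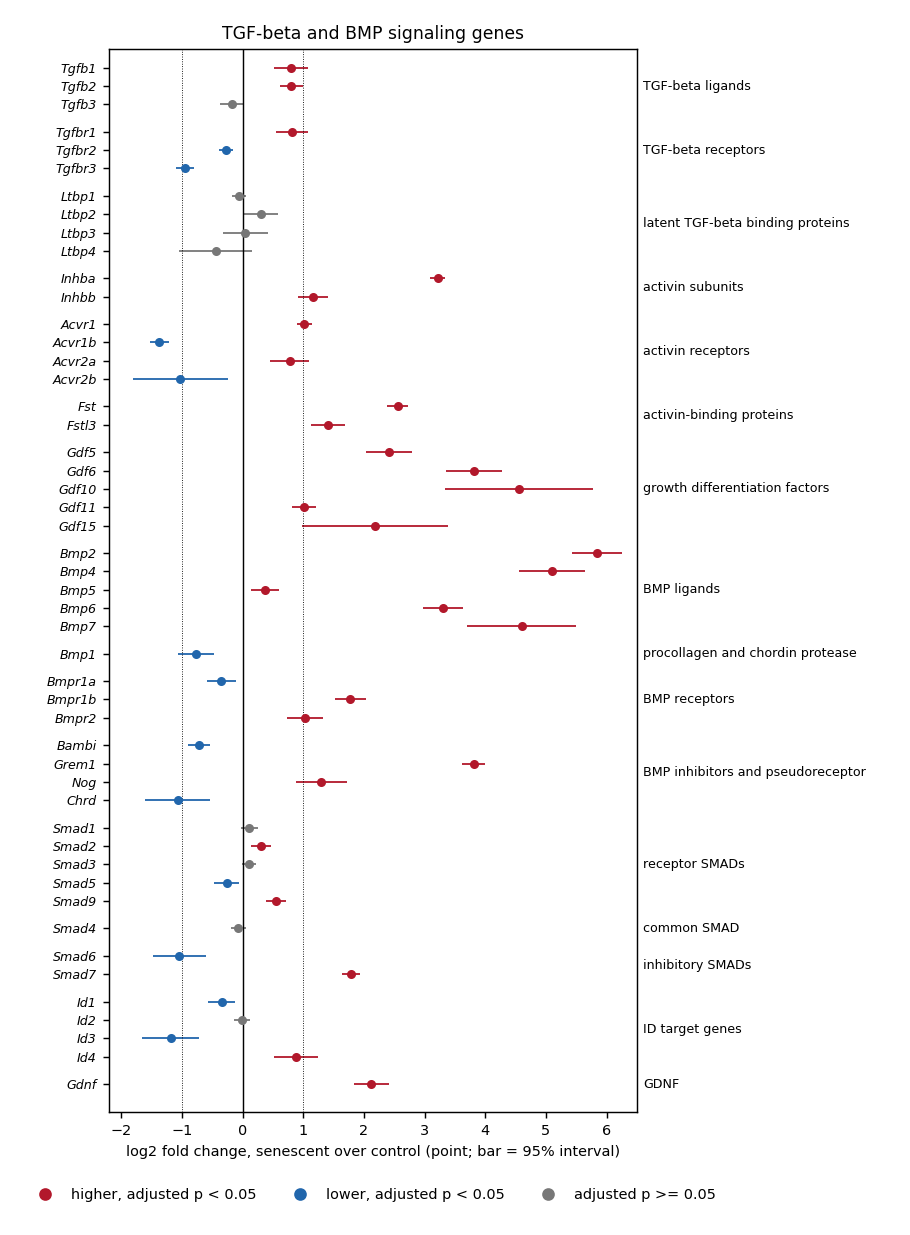
Log2 fold change of each member, senescent over control (point), with its 95% interval (bar), grouped by role, for 3 control and 3 senescent libraries. Red marks the 28 members that rose, blue the 12 that fell and grey the 9 that did not pass the test, and the dotted lines stand at a log2 fold change of 1 and -1. The 4 largest values, 5.84 for *Bmp2*, 5.09 for *Bmp4*, 4.60 for *Bmp7* and 4.55 for *Gdf10*, belong to ligands with 13 or fewer control counts.

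Because the study asked where the clock factor BMAL1 and the AP-1 complex act, promoter windows of the members were searched for their motifs and for SMAD motifs. RefSeq windows of GRCm38.p6, the assembly named mm10, from 250 bases before to 50 after a start, were at hand for 35 of the 49 members (45 windows). The E-box CACGTG, which reads the same on both strands, was found in 5 member windows of 5 genes, and in 7.15% of the 32851 windows of all genes. The AP-1 motif TGACTCA, or TGAGTCA on the other strand, was found in the window of *Ltbp3* alone, against 5.20% of all windows. The SMAD palindrome GTCTAGAC was found at the start of *Smad6* alone, against 0.213% of all windows. The GC-rich SMAD element GGCGCC was found in 14 member windows of 12 genes, against 11.9% of all windows, among genes that rose (*Grem1*, *Gdf10*, *Id4*, *Smad9*, *Bmpr2*, *Tgfbr1*), fell (*Acvr1b*, *Bmpr1a*, *Chrd*, *Smad5*) or did neither (*Id2*, *Ltbp4*). None of these motifs lies within another, and a match describes letters in the window, not binding. BMAL1 binding itself was measured in the study by chromatin immunoprecipitation with sequencing. It reported more binding at *Smad3* and *Gdnf* and less at *Bmpr1b* in senescent cells. The stretches with the first 3 motifs are shown because those motifs belong to the factors the study followed or to the SMADs themselves. Each is written 5′ to 3′ on the strand of its gene, with the motif in capitals.
*Tgfb2* E-box, minus strand, chr1:186706015-186706060: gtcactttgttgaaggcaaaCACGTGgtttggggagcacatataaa
*Gdf15* E-box, minus strand, chr8:70632153-70632198: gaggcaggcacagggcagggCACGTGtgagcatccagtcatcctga
*Bmp6* E-box, plus strand, chr13:38345569-38345614: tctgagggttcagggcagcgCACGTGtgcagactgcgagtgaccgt
*Bmp4* E-box, minus strand, chr14:46390832-46390877: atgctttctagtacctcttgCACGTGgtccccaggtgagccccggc
*Acvr1b* E-box, plus strand, chr15:101173998-101174043: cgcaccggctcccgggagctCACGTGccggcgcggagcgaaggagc
*Ltbp3* AP-1 motif, plus strand, chr19:5740874-5740919: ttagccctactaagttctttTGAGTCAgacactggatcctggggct
*Smad6* SMAD palindrome, minus strand, chr9:64022040-64022083: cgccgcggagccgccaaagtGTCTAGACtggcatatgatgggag
Of the 5 genes with an E-box, *Tgfb2*, *Gdf15*, *Bmp6* and *Bmp4* rose and *Acvr1b* fell.

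The 3 TGF-beta ligands did not move together. *Tgfb1*, the best known profibrotic ligand, measured 15.2, 16.5 and 16.9 CPM in control replicates 1, 2 and 3 and 31.2, 30.3 and 23.1 CPM in the senescent replicates (log2 fold change 0.80, SE 0.12, adjusted p = 5.95e-04). *Tgfb2*, whose E-box lies 51 bases before its start, measured 18.1, 18.8 and 16.7 CPM in control and 29.3, 30.7 and 33.3 CPM in senescent cells (log2 fold change 0.80, SE 0.08, adjusted p = 5.44e-05). For both genes every senescent library was above every control library. *Tgfb3* measured 70.6, 75.7 and 76.8 CPM in control and 68.4, 71.7 and 58.1 CPM in senescent cells, where the groups overlapped (log2 fold change -0.17, 95% interval -0.37 to 0.03, adjusted p = 0.111, and -0.08 without senescent replicate 3, adjusted p = 0.119). Per kilobase of exon, *Tgfb3* was the most abundant ligand RNA in both groups (22.0 and 19.5 CPM per kilobase), ahead of *Tgfb1* (6.34 and 11.0) and *Tgfb2* (3.08 and 5.37). The share of *Tgfb3* in the ligand RNA per kilobase went from 70.0% ± 0.43 to 54.3% ± 0.85 (SD, n = 3 each), while the summed level went from 31.4 ± 1.26 to 35.9 ± 3.47 CPM per kilobase, where the groups overlapped (exact permutation test, two-sided, p = 0.3). A p of 0.1 is the smallest that 3 libraries against 3 allow in this test.

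The TGF-beta receptors moved in opposite directions. *Tgfbr1*, which encodes the signaling type I receptor ALK5, measured 36.6, 36.0 and 37.7 CPM in control and 57.1, 59.2 and 77.1 CPM in senescent cells (log2 fold change 0.81, SE 0.11, adjusted p = 3.69e-04). *Tgfbr2*, the type II receptor that binds ligand, measured 193, 197 and 199 CPM in control and 160, 167 and 161 CPM in senescent cells (log2 fold change -0.27, SE 0.05, adjusted p = 0.00165). *Tgfbr3*, the co-receptor betaglycan that presents TGF-beta2 and inhibin, measured 162, 162 and 157 CPM in control and 80.8, 78.6 and 89.0 CPM in senescent cells (log2 fold change -0.95, SE 0.06, adjusted p = 5.89e-06). None of the 3 overlapped between groups, and the decrease of *Tgfbr2* was small beside the others. The ratio of *Tgfbr1* to *Tgfbr2* per kilobase was 0.139, 0.134 and 0.139 in control and 0.261, 0.260 and 0.351 in senescent libraries. *Tgfbr2* thus remained the more abundant RNA per kilobase in every library.

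The latent TGF-beta binding proteins, which tether secreted TGF-beta to the matrix until it is activated, were the only role of 2 or more members without a call. *Ltbp1* measured between 478 and 494 CPM in control and between 462 and 474 CPM in senescent cells (log2 fold change -0.06, 95% interval -0.18 to 0.05, adjusted p = 0.299). *Ltbp2*, which binds fibrillin and not latent TGF-beta, measured 1021, 1137 and 1119 CPM in control and 1458, 1497 and 1074 CPM in senescent cells (log2 fold change 0.30, SE 0.12, adjusted p = 0.0600). *Ltbp3*, which carries the AP-1 motif shown above, measured 174, 209 and 202 CPM in control and 219, 233 and 150 CPM in senescent cells (log2 fold change 0.04, 95% interval -0.33 to 0.41, adjusted p = 0.834). In *Ltbp2* and *Ltbp3* senescent replicates 1 and 2 were above every control library, and replicate 3 was not. *Ltbp4* likewise measured 31.6 and 34.0 CPM in senescent replicates 1 and 2 and 15.5 CPM in replicate 3, beside 32.9 to 40.1 CPM in control (log2 fold change -0.45, 95% interval -1.05 to 0.16, adjusted p = 0.160). Without senescent replicate 3 the log2 fold change was 0.44 for *Ltbp2* (adjusted p = 1.87e-07), 0.22 for *Ltbp3* (adjusted p = 0.0251) and -0.16 for *Ltbp4* (adjusted p = 0.0656). With an offset for the GC content of each library it was 0.64 for *Ltbp2* (adjusted p = 6.06e-10), 0.37 for *Ltbp3* (adjusted p = 3.10e-06) and -0.08 for *Ltbp4* (adjusted p = 0.532). *Ltbp2* shares 764 exonic bases with an antisense gene of 161 counts on average beside its own 77333.

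Activin subunits and the proteins that neutralize activin rose side by side. *Inhba* encodes the subunit of activin A, and it measured 29.4, 29.0 and 30.3 CPM in control and 274, 278 and 270 CPM in senescent cells, a 9.27-fold difference (log2 fold change 3.21, SE 0.06, adjusted p = 1.09e-08). *Inhbb*, the subunit of activin B, measured 8.90, 11.4 and 10.8 CPM in control and 23.7, 24.4 and 21.6 CPM in senescent cells (log2 fold change 1.16, SE 0.11, adjusted p = 3.56e-05). The senescent libraries of *Inhba* lay close together, while those of *Inhbb* were lowest in replicate 3. *Fst*, or follistatin, which binds activins almost irreversibly, measured 28.7, 29.4 and 27.2 CPM in control and 161, 159 and 181 CPM in senescent cells (log2 fold change 2.55, SE 0.07, adjusted p = 6.89e-08). *Fstl3*, a follistatin-like inhibitor of activin and myostatin, measured 13.2, 14.9 and 15.9 CPM in control and 39.3, 44.0 and 33.2 CPM in senescent cells (log2 fold change 1.41, SE 0.12, adjusted p = 2.31e-05). No groups overlapped for these 4 genes. Per kilobase, the summed follistatin RNAs stood at 1.05, 1.08 and 1.02 times the summed activin subunit RNAs in control libraries and at 0.589, 0.589 and 0.643 times in senescent libraries. The ratio of *Inhba* to *Inhbb* per kilobase went from 6.20 ± 0.82 to 25.4 ± 1.29 (SD, n = 3 each).

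Among activin receptors, 2 rose and 2 fell. *Acvr1* encodes ALK2, a type I receptor that signals mainly for BMPs, and it measured 40.0, 40.1 and 38.9 CPM in control and 79.4, 78.9 and 82.4 CPM in senescent cells (log2 fold change 1.02, SE 0.05, adjusted p = 1.37e-06). *Acvr1b* encodes ALK4, the type I receptor of activins, and it measured 70.9, 72.7 and 72.9 CPM in control and 28.6, 29.1 and 26.0 CPM in senescent cells (log2 fold change -1.37, SE 0.06, adjusted p = 7.60e-07). The ratio of *Acvr1* to *Acvr1b* per kilobase was therefore between 0.488 and 0.516 in control and between 2.48 and 2.90 in senescent libraries, so that the order of these type I receptor RNAs was exchanged. *Acvr2a*, the main type II receptor of activin, measured 14.03, 14.6 and 12.7 CPM in control and 21.6, 20.4 and 28.8 CPM in senescent cells (log2 fold change 0.78, SE 0.14, adjusted p = 0.00132). It shares 446 exonic bases with *Orc4* on the opposite strand, which itself went from 34.6 to 76.9 CPM. The strand setting of the counting is not given in the sources used here, so reads of such overlapping genes may not be fully separated. *Acvr2b*, the other type II receptor, was scarce, at 0.633 to 0.803 CPM in control and 0.523, 0.366 and 0.189 CPM in senescent cells (log2 fold change -1.03, SE 0.34, adjusted p = 0.0250). That call did not pass without control replicate 1 (adjusted p = 0.0530), control replicate 2 (0.0860) or senescent replicate 2 (0.0524), and without senescent replicate 3 the log2 fold change was -0.70 (0.0334).

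All 5 growth differentiation factors rose, most of them from low levels. *Gdf6*, a cartilage and joint morphogen, measured 0.241, 0.167 and 0.266 CPM in control and 3.21, 2.77 and 3.42 CPM in senescent cells (log2 fold change 3.81, SE 0.20, adjusted p = 1.35e-06). *Gdf5*, its close relative in joint formation, measured 1.24, 1.52 and 1.39 CPM in control and 8.24, 8.11 and 6.004 CPM in senescent cells (log2 fold change 2.42, SE 0.16, adjusted p = 5.92e-06). In both genes the lowest senescent library was well above the highest control library. *Gdf11*, a relative of myostatin, was the most abundant of the family in CPM per kilobase in both groups (1.98 and 3.98) and measured 7.82 to 8.28 CPM in control and 15.3, 15.6 and 17.6 CPM in senescent cells (log2 fold change 1.01, SE 0.09, adjusted p = 2.11e-05). Its log2 fold change was 0.95 without senescent replicate 3 (adjusted p = 6.07e-09). *Gdf10*, or BMP3B, had 6 counts in the control libraries together and 201 in the senescent libraries, a ratio of 24.2 after scaling (95% counting interval 10.9 to 66.8, adjusted p = 1.23e-04). *Gdf15*, a stress cytokine induced by p53 and the integrated stress response, measured 0.160, 0.234 and 0.204 CPM in control and 1.37, 1.07 and 0.391 CPM in senescent cells, where replicate 3 was nearest to control (log2 fold change 2.18, SE 0.52, adjusted p = 0.00600). Without senescent replicate 3 its log2 fold change was 2.58 (adjusted p = 6.02e-07).

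*Bmp2* had the largest log2 fold change of the members, also with each library left out in turn, whereas the order of *Bmp4*, *Bmp7* and *Gdf10* changed with the library left out. *Bmp2* (chr2:133552159-133562885), a strong inducer of bone and cartilage, measured 0.0601, 0.1004 and 0.0817 CPM in control and 4.67, 4.76 and 4.99 CPM in senescent cells (log2 fold change 5.84, SE 0.18, adjusted p = 7.82e-08). *Bmp4* (chr14:46383520-46390669), its closest relative, measured 0.0802, 0.0669 and 0.0409 CPM in control and 2.06, 2.41 and 2.17 CPM in senescent cells (log2 fold change 5.09, SE 0.23, adjusted p = 6.30e-07). The control values rest on few reads. *Bmp2* had 13 counts in the 3 control libraries together and 1057 in the senescent libraries, a ratio of 58.8 (95% counting interval 34.3 to 111), and *Bmp4* had 10 and 488, a ratio of 35.3 (19.0 to 74.1). These intervals cover counting error of the pooled counts only, not the spread between libraries. The reads carried no molecular identifiers, so copies of a molecule may have been counted more than once. *Bmp7*, a ligand of kidney and eye development, had 4 and 144 counts, a ratio of 26.1 (9.96 to 96.9), and stayed under 1 CPM in all libraries (log2 fold change 4.60, SE 0.39, adjusted p = 2.04e-05). *Bmp6* (chr13:38345716-38499728), a regulator of iron metabolism that also acts on bone, measured 0.461, 0.435 and 0.409 CPM in control and 4.74, 4.21 and 3.99 CPM in senescent cells (log2 fold change 3.30, SE 0.14, adjusted p = 4.49e-07). Each of the 3 senescent libraries of *Bmp6* was above every control library, with replicate 1 the highest. *Bmp6* shares 224 exonic bases with *Txndc5* on the opposite strand, which went from 703 to 542 CPM. Reads of these overlapping genes may not be fully separated.

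*Bmp5*, a ligand known for its role in the shape of the outer ear, was the exception in level and in size of change. It measured 39.4, 36.9 and 38.2 CPM in control and 45.6, 45.3 and 56.8 CPM in senescent cells (log2 fold change 0.37, SE 0.10, adjusted p = 0.00960). With the GC offset its log2 fold change was 0.20 (adjusted p = 5.69e-04). *Bmp5* was the most abundant BMP ligand RNA per kilobase in every library, with 9.48 ± 0.31 CPM per kilobase in control and 12.2 ± 1.63 in senescent cells (SD, n = 3 each). Its share of the BMP ligand RNA went from 97.6% ± 0.20 to 73.8% ± 2.92, as *Bmp6* reached 10.9% ± 1.76, *Bmp2* 8.20% ± 0.47, *Bmp4* 6.05% ± 0.82 and *Bmp7* 0.999% ± 0.26. The summed BMP ligand RNA measured 10.0, 9.41 and 9.71 CPM per kilobase in control and 15.7, 15.6 and 18.3 in senescent libraries. Ligands with log2 fold changes over 3 thus made up a minor part of the BMP RNA of senescent cells. *Bmp1*, which despite its name is a protease that matures procollagen and cleaves the BMP antagonist chordin, went the other way, with 154, 171 and 166 CPM in control and 106, 107 and 76.5 CPM in senescent cells (log2 fold change -0.76, SE 0.13, adjusted p = 9.22e-04). With the GC offset its log2 fold change was -0.48 (adjusted p = 9.38e-08).

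**Figure D2:**
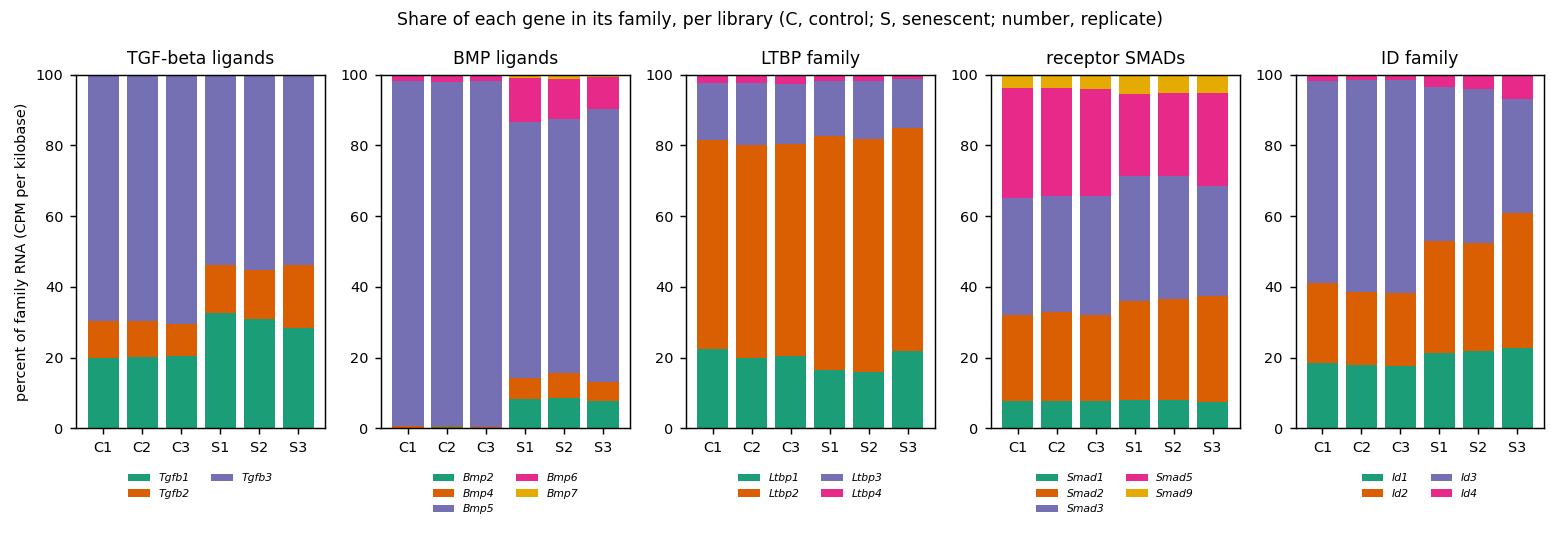
Share of each gene in the RNA of its family per library, in percent of the summed CPM per kilobase, for TGF-beta ligands, BMP ligands, latent TGF-beta binding proteins (LTBP), receptor SMADs and ID genes, where C1 to C3 are control and S1 to S3 senescent replicates. *Bmp5* fills 97.4% to 97.8% of the BMP ligand bar in control and 72.0% to 77.2% in senescent libraries, and *Tgfb3* goes from 69.7% to 70.5% down to 53.7% to 55.3%.

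The BMP receptors shifted towards the scarcer type I receptor. *Bmpr1b* encodes ALK6, a receptor of GDF5 and BMPs in cartilage, and it measured 8.94, 8.77 and 7.56 CPM in control and 26.9, 27.3 and 32.4 CPM in senescent cells (log2 fold change 1.78, SE 0.11, adjusted p = 3.31e-06). *Bmpr1a*, which encodes the widely expressed ALK3, measured 174, 159 and 163 CPM in control and 119, 117 and 151 CPM in senescent cells (log2 fold change -0.35, SE 0.10, adjusted p = 0.0148). Every senescent library of *Bmpr1a* was below every control library, replicate 3 narrowly so, and the call did not pass without control replicate 1 (adjusted p = 0.0504) or senescent replicate 1 (0.0538). The ratio of *Bmpr1b* to *Bmpr1a* per kilobase was 0.0543 ± 0.0047 in control and 0.239 ± 0.0094 in senescent cells (SD, n = 3 each), so *Bmpr1a* remained the more abundant. *Bmpr2*, the type II receptor, measured 123, 112 and 111 CPM in control and 204, 212 and 285 CPM in senescent cells (log2 fold change 1.02, SE 0.13, adjusted p = 1.96e-04). Its log2 fold change was 0.86 without senescent replicate 3 (adjusted p = 1.32e-10) and 0.86 with the GC offset (adjusted p = 7.68e-08).

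Of the 4 members grouped here as BMP inhibitors and pseudoreceptor (*Grem1*, *Nog*, *Chrd* and *Bambi*), *Grem1* had the largest log2 fold change. *Grem1* (chr2:113746164-113758646) encodes gremlin 1, a secreted antagonist of BMP2, BMP4 and BMP7. It measured 159.5, 152 and 158 CPM in control and 2079, 2059 and 2424 CPM in senescent cells, a 13.98-fold difference (log2 fold change 3.81, SE 0.08, adjusted p = 2.26e-08). No control library came near the senescent ones. Per kilobase it was the member with rank 7 in control (37.7 CPM per kilobase) and rank 1 in senescent cells (527), ahead of *Ltbp2* (164), *Inhba* (139) and *Fst* (71.5). *Grem1* took 3.89% ± 0.18 of the summed CPM of the 49 members in control and 33.0% ± 3.24 in senescent cells. The summed CPM went from 3919 to 4095 in control to between 6607 and 6701 in senescent libraries, and without *Grem1* from 3760 to 3943 to between 4183 and 4642. Its upstream stretch is shown because it is the promoter of the most abundant member of senescent cells. The 250 bases before the start, on the minus strand at chr2:113758649-113758898 of GRCm38.p6, hold a GC-rich SMAD element, in capitals, that begins 78 bases before the start.
*Grem1* upstream: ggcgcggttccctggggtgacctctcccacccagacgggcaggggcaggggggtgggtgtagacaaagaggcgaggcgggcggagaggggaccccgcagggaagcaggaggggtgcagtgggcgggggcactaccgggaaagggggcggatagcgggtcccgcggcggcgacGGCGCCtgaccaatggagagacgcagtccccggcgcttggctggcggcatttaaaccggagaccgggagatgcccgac
The window of *Grem1* held neither the E-box nor the AP-1 motif.

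The other BMP antagonists were far less abundant and did not share one direction. *Nog*, or noggin, which binds BMP2 and BMP4, measured 0.922, 0.920 and 1.18 CPM in control and 2.02, 2.46 and 2.89 CPM in senescent cells (log2 fold change 1.30, SE 0.18, adjusted p = 3.71e-04). *Chrd*, or chordin, the substrate of the *Bmp1* protease, measured 7.44, 8.01 and 8.62 CPM in control and 4.29, 4.79 and 2.40 CPM in senescent cells (log2 fold change -1.07, SE 0.23, adjusted p = 0.00360, and -0.81 without senescent replicate 3, adjusted p = 2.15e-06). *Bambi*, a pseudoreceptor without a kinase domain that dampens TGF-beta and BMP signaling, measured 21.7, 21.4 and 21.2 CPM in control and 12.6, 14.001 and 12.5 CPM in senescent cells (log2 fold change -0.72, SE 0.08, adjusted p = 6.94e-05). In each of these 3 genes the groups were separate. Set against the summed BMP ligand RNA per kilobase, *Grem1* stood at 3.83, 3.90 and 3.92 in control and at 31.95, 31.80 and 31.96 in senescent libraries. This ratio therefore differed far more between groups than between replicates. Its denominator was mostly *Bmp5*, at 97.6% in control and 73.8% in senescent cells, which is not among the ligands named above for gremlin 1. The ligands named there, *Bmp2* (5.84), *Bmp4* (5.09) and *Bmp7* (4.60), each had a larger log2 fold change than *Grem1* (3.81), from few control counts. The ratio thus does not describe *Grem1* against those ligands.

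**Figure D3:**
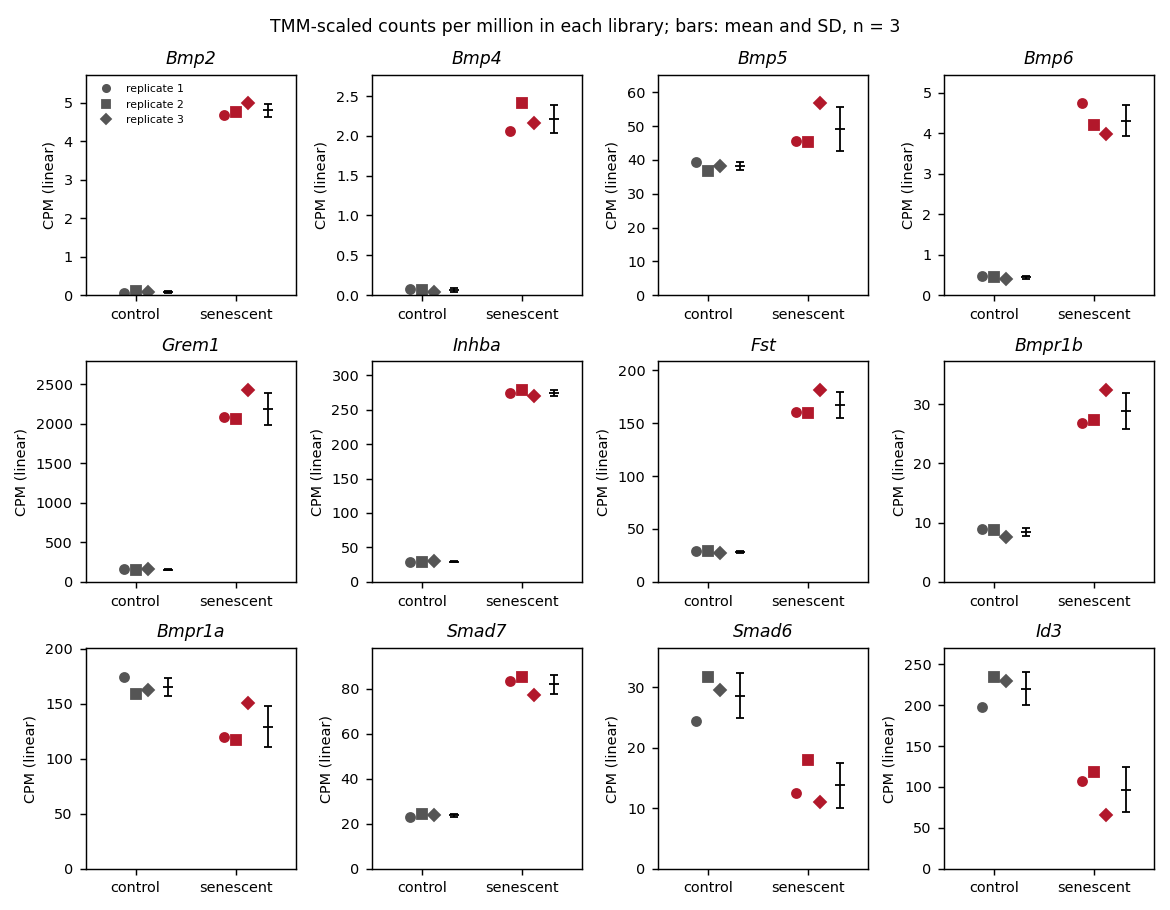
TMM-scaled CPM on a linear axis in each of 3 control (grey) and 3 senescent (red) libraries for 12 members, with the mean and SD (bars, n = 3) beside the points and the replicate number given by the marker. *Bmp2*, *Bmp4* and *Bmp6* lie near 0 in control and between 2.06 and 4.99 CPM in senescent cells, whereas *Bmp5* is at 36.9 CPM or more in all libraries, and *Id3* is lowest in senescent replicate 3 (65.3 CPM).

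The receptor SMADs changed little in comparison with the ligands. *Smad2*, which carries TGF-beta and activin signals, measured 52.7, 52.9 and 50.7 CPM in control and 60.0, 62.3 and 70.3 CPM in senescent cells (log2 fold change 0.30, SE 0.07, adjusted p = 0.00611). *Smad3*, the DNA-binding partner in the same branch, measured 112, 107 and 109 CPM in control and 119, 119 and 114 CPM in senescent cells (log2 fold change 0.10, 95% interval -0.02 to 0.23, adjusted p = 0.111). *Smad3* did not overlap between the groups, yet the difference was within the error of the test. It passed without senescent replicate 3 (log2 fold change 0.13, adjusted p = 0.00419) and with the GC offset (0.30, adjusted p = 5.02e-05). In the BMP branch, *Smad1* measured 26.0 to 27.7 CPM in control and 28.7 to 28.9 CPM in senescent cells (log2 fold change 0.11, 95% interval -0.03 to 0.25, adjusted p = 0.139), and with the GC offset the log2 fold change was 0.24 (adjusted p = 0.00116). *Smad5* measured 141, 134 and 131 CPM in control and 104, 107 and 128 CPM in senescent cells, where replicate 3 came close to control (log2 fold change -0.26, SE 0.09, adjusted p = 0.0269). Its call did not pass without control replicate 1 or 2 or senescent replicate 1 or 2, where the adjusted p lay between 0.0613 and 0.0928. *Smad9*, which encodes the less abundant SMAD8, measured 12.3 to 12.8 CPM in control and 17.7 to 19.0 CPM in senescent cells (log2 fold change 0.55, SE 0.07, adjusted p = 2.11e-04). The common mediator *Smad4* measured 98.2, 99.7 and 102 CPM in control and 92.9, 93.8 and 98.8 CPM in senescent cells, so that the groups overlapped (log2 fold change -0.07, 95% interval -0.20 to 0.05, adjusted p = 0.270). Without senescent replicate 3 its log2 fold change was -0.09 (adjusted p = 0.0370). Summed over the 5 receptor SMADs the level was 59.6 ± 1.47 CPM per kilobase in control and 62.9 ± 2.88 in senescent cells (SD, n = 3 each, exact permutation test, two-sided, p = 0.2).

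The inhibitory SMADs, which compete for receptors and recruit ubiquitin ligases to them, parted. *Smad7*, which is induced by TGF-beta and blocks both branches, measured 22.9, 24.4 and 24.0 CPM in control and 83.4, 85.3 and 77.2 CPM in senescent cells (log2 fold change 1.79, SE 0.06, adjusted p = 1.99e-07). *Smad6*, which preferentially blocks BMP signaling and carries the SMAD palindrome shown above across its start, measured 24.4, 31.7 and 29.6 CPM in control and 12.5, 18.0 and 11.0 CPM in senescent cells (log2 fold change -1.05, SE 0.19, adjusted p = 0.00142). The difference was -0.65 with the GC offset (adjusted p = 4.91e-04) and -0.88 without senescent replicate 3 (adjusted p = 0.0122). Their ratio per kilobase, *Smad7* over *Smad6*, was 0.665, 0.546 and 0.576 in control and 4.75, 3.36 and 4.99 in senescent libraries, so *Smad6* was the more abundant in all control libraries and *Smad7* in all senescent libraries.

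The *Id* genes encode inhibitors of basic helix-loop-helix factors and are direct targets of BMP-activated SMADs. *Id3* measured 197, 234 and 229 CPM in control and 108, 118 and 65.3 CPM in senescent cells (log2 fold change -1.18, SE 0.20, adjusted p = 0.00103). *Id1* measured 41.1, 45.1 and 43.4 CPM in control and 34.3, 38.1 and 29.7 CPM in senescent cells (log2 fold change -0.34, SE 0.10, adjusted p = 0.0130). Both fell while all 5 BMP ligand RNAs rose, and both were lowest in senescent replicate 3. Without this library the log2 fold change was -0.96 for *Id3* (adjusted p = 9.23e-06) and -0.25 for *Id1* (adjusted p = 0.00111). With the GC offset the value of *Id1* was -0.11 (adjusted p = 0.0374), and without control replicate 2 its call did not pass (adjusted p = 0.0531). *Id2* measured 55.5 to 57.2 CPM in control and 54.2 to 58.2 CPM in senescent cells, with overlapping groups (log2 fold change -0.01, 95% interval -0.14 to 0.12, adjusted p = 0.923). *Id4*, the scarcest of the family, measured 6.03, 5.52 and 5.37 CPM in control and 8.33, 9.94 and 12.7 CPM in senescent cells (log2 fold change 0.88, SE 0.16, adjusted p = 0.00132). The summed *Id* RNA went from 208 ± 13.3 to 134 ± 19.4 CPM per kilobase (SD, n = 3 each), and the share of *Id3* in it from 59.1% ± 1.73 to 39.8% ± 6.42.

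*Gdnf* encodes glial cell line-derived neurotrophic factor, a distant member of the superfamily that signals through the receptor tyrosine kinase RET and not through SMADs. It measured 3.79, 2.91 and 3.49 CPM in control and 14.6, 13.6 and 16.1 CPM in senescent cells, with no overlap (log2 fold change 2.12, SE 0.12, adjusted p = 2.44e-06). Of 6 tested genes for GDNF receptors and related ligands outside the 49 members, 3 rose (50%) and 2 fell (33.3%), beside 36.2% and 34.1% of all genes tested. The GPI-anchored co-receptor *Gfra1* went from 31.4 ± 1.08 to 111 ± 3.54 CPM (log2 fold change 1.82, adjusted p = 1.05e-07), the alternative receptor *Ncam1* from 108 ± 1.51 to 312 ± 6.78 CPM (1.54, adjusted p = 1.31e-07) and *Ret* from 7.27 ± 0.030 to 12.9 ± 1.57 CPM (0.83, adjusted p = 2.11e-04). The ligand *Artn* fell from 18.3 ± 0.52 to 5.30 ± 0.61 CPM, and the neurturin co-receptor *Gfra2* from 8.75 ± 0.52 to 4.67 ± 0.66 CPM (SD, n = 3 each). The ligand, its co-receptor and RET were thus all higher in senescent MAFs.

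**Figure D4:**
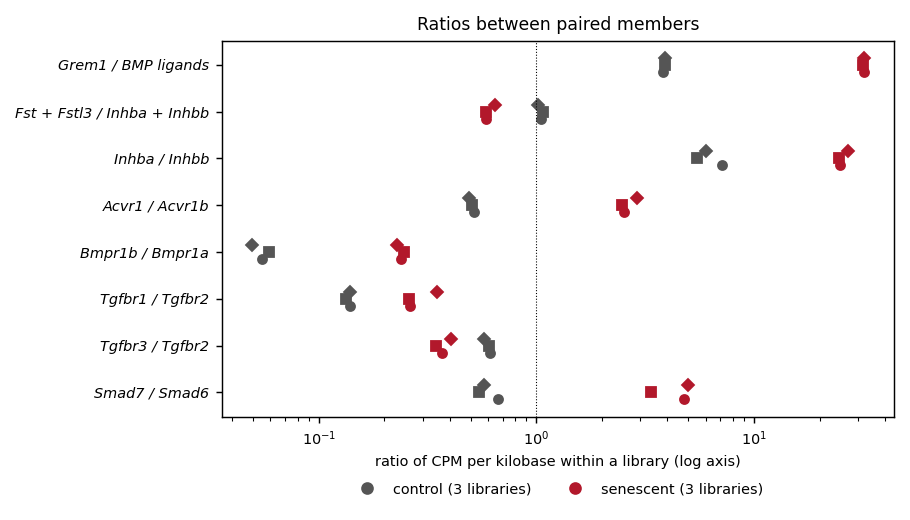
Ratio of CPM per kilobase between members within each library, on a log axis, for 3 control (grey) and 3 senescent (red) libraries, with replicates drawn at slightly different heights. No ratio overlaps between the groups. *Acvr1* over *Acvr1b* and *Smad7* over *Smad6* cross 1 (dotted line) upwards, and *Fst* with *Fstl3* over *Inhba* with *Inhbb* crosses it downwards. *Grem1* over the summed BMP ligands, which are mostly *Bmp5*, goes from 3.83 to 3.92 in control to between 31.80 and 31.96 in senescent libraries.

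Other genes of the pathway, from lists of its further ligands, receptors, modulators and targets, moved in both directions. The count table held 139 such genes and 117 of them were tested, of which 61 rose (52.1%), 37 fell (31.6%) and 19 did not pass, with a median log2 fold change of 0.38, beside 36.2%, 34.1% and 0.01 for all genes tested. These shares of all genes also stand beside the smaller lists that follow. Among 17 tested genes that store or activate latent TGF-beta, 10 rose and 6 fell. The proteoglycan decorin, *Dcn*, which binds TGF-beta, rose from 56.6 ± 0.38 to 642 ± 65.2 CPM (log2 fold change 3.50, adjusted p = 3.18e-08), and the integrin subunit *Itgb3* from 10.6 ± 0.76 to 45.9 ± 0.99 CPM (2.12, adjusted p = 1.82e-07). Thrombospondin 1, *Thbs1*, an activator of latent TGF-beta, rose from 4348 ± 50.5 to 8394 ± 190 CPM (0.95, adjusted p = 1.11e-06). The fibrillins, microfibril proteins that anchor latent complexes, fell, with *Fbn2* going from 1177 ± 12.9 to 79.7 ± 4.07 CPM (-3.89, adjusted p = 1.02e-08) and *Fbn1* by 1.00 on the log2 scale (adjusted p = 1.02e-06). Fibromodulin, *Fmod*, fell from 715 ± 6.03 to 199.7 ± 10.2 CPM (-1.84, adjusted p = 1.03e-07).

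Among further ligands 6 of 9 tested rose and 1 fell. *Bmp8a* went from 0.355 ± 0.11 to 3.18 ± 0.52 CPM (log2 fold change 3.18, adjusted p = 1.00e-05), *Gdf9* rose by 1.73 (adjusted p = 2.24e-04), and the inhibin subunit *Inha* fell by 0.56 (adjusted p = 0.0116). *Bmp3*, a BMP that opposes osteogenic BMPs, had a mean of 0.375 CPM in senescent cells and is too scarce in control for a meaningful fold. Of 12 further receptors and co-receptors 7 rose and 3 fell. The repulsive guidance molecules, BMP co-receptors, went opposite ways, *Rgmb* rising from 19.8 ± 1.36 to 72.8 ± 2.37 CPM (1.88, adjusted p = 2.55e-07) and *Rgma* falling from 30.7 ± 3.29 to 8.98 ± 2.01 CPM (-1.77, adjusted p = 4.33e-05), while their receptor *Neo1* fell by 0.46 (adjusted p = 4.00e-04). Endoglin, *Eng*, a co-receptor of BMP9, rose by 1.05 (adjusted p = 9.17e-04), the transmembrane follistatin-like protein *Tmeff2* by 1.58 (adjusted p = 1.19e-05), and *Tgfbr3l* fell by 1.68 (adjusted p = 1.90e-04).

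Of 20 further extracellular modulators 8 rose and 10 fell, in a list of mostly BMP antagonists that also holds the proteases *Tll1* and *Tll2* and the procollagen proteinase enhancer *Pcolce*. *Crim1* rose by 1.23 on the log2 scale (adjusted p = 6.58e-07) and the chordin protease *Tll1*, a relative of *Bmp1*, by 1.82 (adjusted p = 9.69e-07). The matricellular *Smoc2* and *Smoc1* fell by 1.70 (adjusted p = 1.08e-07) and 1.52 (adjusted p = 1.88e-07), and *Fstl1* fell from 2796 ± 57.8 to 1257 ± 64.0 CPM (-1.15, adjusted p = 1.04e-06). Of 25 SMAD co-factors and turnover genes 14 rose and 4 fell. The stress factor *Atf3*, which can act with SMAD3, rose from 0.694 ± 0.044 to 10.1 ± 0.45 CPM (3.86, adjusted p = 5.53e-08). The ubiquitin ligase *Smurf2*, which works with SMAD7, rose from 112 ± 3.60 to 541 ± 44.6 CPM (2.28, adjusted p = 1.26e-07), while the ligase *Wwp2* fell from 806 ± 19.6 to 124 ± 12.9 CPM (-2.70, adjusted p = 1.10e-07). The SMAD corepressor *Tgif1* rose by 1.68 (adjusted p = 1.70e-07), its paralog *Tgif2* fell by 1.10 (adjusted p = 2.15e-05) and *Sp1* fell by 0.52 (adjusted p = 5.93e-04).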

How the data were processed

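Polyadenylated RNA of 3 control and 3 senescent MAF samples was measured. Reads were aligned by the authors to the mm10 build using STAR and assigned to genes using Subread, and the deposited raw counts were used without change. The strand setting and the handling of reads that match several places are not given in the sources used here. Exonic lengths came from the same table.

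Samples were grouped by their labels. Genes were kept by filterByExpr (17589 of 43346), TMM factors set the library sizes, and the counts of both groups were compared with edgeR 4.0.16 in R 4.3.3 (robust quasi-likelihood F test, two-sided, group as the only term, Benjamini-Hochberg adjustment over all genes tested). CPM use TMM-scaled totals, which lay between 50288454 and 82229553 before scaling, and CPM per kilobase divide them by exonic length. Shares and ratios were compared with an exact permutation test. Counting intervals are exact 95% binomial intervals of the split of counts. The test was checked on simulated data.

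The members and lists were chosen with earlier results of these data known. All 49 members are named, and from each further pathway list the 3 genes with the smallest p in each direction, of which 2 are not reported here. Cell type markers are given by their summed level. The 4 motifs were counted in RefSeq promoter windows.

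Alternatives were RLE scaling, scaling by total count alone, no filter beyond 1 count, at least 10 counts in every library, DESeq2 1.42.0, a replicate block, an offset from a per-library smooth on transcript GC content (GENCODE annotation of GRCm38), and leaving out each library.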

Additional observations from a re-analysis of the deposited data

How the results depend on the processing

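Of the 49 members, 37 kept their direction and their side of the threshold under all 13 alternatives in which they were tested, as did 38 of 39 other pathway genes that the naming rule took (*Inha* did not pass with the GC offset). Members called higher numbered 28 and ranged from 26 to 32, and those called lower numbered 12 and ranged from 9 to 13. The count of members with a log2 fold change under -1 was 5, and it was 2 with scaling by total count alone, 3 with at least 10 counts in every library and 1, *Acvr1b*, with the GC offset. It ranged from 2 to 5 when each library was left out in turn, with 3 without control replicate 2 and 2 without senescent replicate 3. The cause of these differences was not tested. With at least 10 counts in every library, *Gdf10*, *Gdf15*, *Bmp2*, *Bmp4* and *Bmp7* were not tested, because their control counts were lower. Same-numbered libraries were not treated as pairs in the main test. Correlations of their deviations were -0.118, 0.117 and -0.103, and those of differently numbered libraries lay between -0.188 and 0.226. With 3 libraries per group these values cannot tell whether same-numbered libraries shared an origin. With the replicate number as a block 28 members were higher and 12 lower, with no call changed among the 49. Values that turned sign all belong to differences that did not pass the test. These were *Tgfb3* (0.0125) and *Ltbp1* (0.118) with the GC offset, *Ltbp1* (0.0165), *Smad4* (0.00664) and *Id2* (0.0712) with total count scaling, and *Id2* with RLE scaling (0.0136), DESeq2 (0.0136) and at least 10 counts (0.0422). With each library left out in turn, *Id2* ranged from -0.0271 to 0.0249, *Ltbp3* from -0.0728 to 0.221, where the highest value is without senescent replicate 3, and the difference in the share of *Smad3* among receptor SMADs from -0.121 without senescent replicate 1 to 2.05 percentage points without senescent replicate 3. The leave-one-out of shares and ratios was chosen after seeing the data. *Ltbp2* passed under RLE (adjusted p = 0.0455), total count scaling (0.0236), at least 10 counts (0.0400) and DESeq2 (0.0268) too, *Smad3* under total count scaling (0.0173) and at least 10 counts (0.0315), and *Smad1* under the same (0.0274 and 0.0457). *Smad5* did not pass under total count scaling (0.0907) and at least 10 counts (0.0572). Members under 1 CPM in control rest on a few counts per library, which limits the precision of their fold changes.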

Other observations

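Among 28 tested response genes of TGF-beta and BMP signaling, 13 rose and 11 fell in senescent MAFs, with a median log2 fold change of 0.09, shares of 46.4% and 39.3% beside 36.2% and 34.1% of all genes tested. *Cdkn1a*, the cell cycle inhibitor p21, which p53 also induces, rose by 2.33 on the log2 scale (edgeR adjusted p = 2.54e-08), and the matricellular *Ctgf* rose by 1.95 (adjusted p = 5.75e-08). *Tgfbi*, named for its induction by TGF-beta, fell from 215 ± 0.97 to 40.0 ± 1.79 CPM (SD, n = 3 each, log2 fold change -2.43, adjusted p = 2.90e-08). The collagen *Col1a2* fell by 1.87 (adjusted p = 3.86e-06) and periostin, *Postn*, by 1.19 (adjusted p = 8.75e-06). *Acta2*, *Cnn1*, *Junb* and *Runx1* did not pass the test, and these 4 were named after their values were seen. *Col1a2* is also among the fibroblast markers, of which 5 fell and 3 rose.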
